A study of Mus musculus with 8 samples.

Results

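Gas5 and the Snhg genes are long non-coding RNA genes whose introns carry small nucleolar RNAs (snoRNAs). The 7 transcripts described here, Gas5, Snhg1, Snhg3, Snhg5, Snhg6, Snhg8 and Snhg12, were taken by gene symbol from 24639 counted genes, and each had exactly 1 row. They were measured in primary mesangial cells (MMC), the contractile cells that hold the capillary loops of the kidney glomerulus. The MMC were untreated, grown in RPMI medium with 10% serum, and came from wild-type (WT) C57BL/6J mice or from miR-379KO mice, which are homozygous for a short CRISPR-Cas9 nickase deletion at the microRNA miR-379 on the same background. For each genotype there were 2 total RNA libraries, made from polyadenylated RNA with a stranded kit, and 2 AGO2-IP libraries, made from RNA that was UV cross-linked in the cells and precipitated with an antibody to AGO2, the Argonaute protein that carries microRNAs. The 2 samples of a group are called A and B. The paper describes the AGO2-IP samples A and B as independent, but nothing in the labels says whether A and B came from separate mice or cultures. The p-values therefore measure only the spread between these samples, which may be technical. The knockout colony was bred from edited founder mice. The study compared the genotypes to find RNAs bound by AGO2 through miR-379, and the host transcripts were followed here through the same libraries.

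A snoRNA host gene is transcribed, spliced and polyadenylated like a messenger RNA gene. The snoRNAs are trimmed out of the excised introns and stay in the nucleolus, where C/D box snoRNAs guide 2′-O-methylation and H/ACA box snoRNAs guide pseudouridylation of ribosomal RNA. What is left, the spliced exons, has little coding potential, and for several hosts, Gas5 among them, it is exported, loaded with ribosomes and degraded by nonsense-mediated decay (NMD). Many hosts start with a 5′ terminal oligopyrimidine (5′TOP) tract, the feature by which ribosomal protein mRNAs are held back from translation in growth arrest, and Gas5 is named for its rise in growth-arrested cells.

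On the GRCm38.p6 build, RefSeq places Gas5 on the plus strand at chr1:161034601-161038539, with 8 transcripts of 6 to 12 exons that cover 620 bases. Snhg1 lies at chr19:8723487-8726326 (plus strand, 10 exons, 476 bases), Snhg5 at chr9:88521052-88522897 (minus strand, 5 exons, 1011 bases) and Snhg6 at chr1:9942025-9944118 (minus strand, 4 exons, 407 bases). Snhg3 at chr4:132351933-132353686 (minus strand, 3 exons, 437 bases) and Snhg12 at chr4:132308678-132311024 (plus strand, 5 exons, 606 bases) are neighbours on opposite strands, 40908 bases apart. Snhg8 at chr3:123507552-123508336 (minus strand) is annotated as a single exon of 785 bases. The 7 genes hold 26 annotated snoRNAs on their own strand, of which 8 had a row of their own: Snord47 in Gas5, Snord22 in Snhg1, Snord87 in Snhg6, Snora24 in Snhg8, and Snora16a, Snora44, Snora61 and Snord99 in Snhg12. The other 18, including both snoRNAs of Snhg3 and both of Snhg5, had no row and were not analysed here. All but Snora24 lie wholly in introns, so the host rows, which count exons, and the snoRNA rows count different RNA.

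The sequences around the annotated starts are shown because many snoRNA hosts start with a 5′TOP tract. Each line runs from 30 bases before to 30 bases after a start in the RefSeq promoter table (GRCm38.p6, strand of the gene), 5′ to 3′, and capitals mark the longest unbroken run of C and T of at least 6 bases that begins within 10 bases of the start.
Gas5, upstream start, chr1:161034571-161034630: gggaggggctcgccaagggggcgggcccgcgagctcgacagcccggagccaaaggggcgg
Gas5, downstream start, chr1:161035136-161035195: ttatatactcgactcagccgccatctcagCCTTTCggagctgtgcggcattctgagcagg
Snhg1, chr19:8723457-8723516: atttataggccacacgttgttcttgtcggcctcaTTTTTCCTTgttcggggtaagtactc
Snhg3, chr4:132353657-132353716: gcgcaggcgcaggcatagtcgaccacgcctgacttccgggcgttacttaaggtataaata
Snhg5, chr9:88522868-88522927: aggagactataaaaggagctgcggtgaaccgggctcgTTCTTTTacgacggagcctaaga
Snhg8, chr3:123508307-123508366: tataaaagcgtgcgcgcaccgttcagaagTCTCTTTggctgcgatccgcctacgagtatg
Snhg12, chr4:132308648-132308707: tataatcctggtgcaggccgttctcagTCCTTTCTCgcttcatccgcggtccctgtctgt
Snhg6 was not among the promoter entries. Of the 6 genes with an entry, 5 had such a run at a start, against 26.2% of 27025 genes in the table. The letters TATA, which read the same on both strands, stood 40 to 16 bases before a start in the same 5 of 6 genes, against 7.02% of the 27025. Snhg3 had neither within these windows, and the letters TATA stood after its annotated start. These matches describe letters only, and the windows were chosen with the sequences in view.

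The libraries differed in depth on these genes. Total RNA libraries held 17168230 to 22660743 counts assigned to genes, and AGO2-IP libraries 5587611 to 17095021, of which 80.0% to 89.0% fell on the Rn45s and Lars2 rows, against 4.67% to 9.58% in total RNA. Without those 2 rows the AGO2-IP libraries held 1115782 to 1875037 counts. Reads that met no annotated exon on the counted strand made up 46.6% and 49.7% of uniquely placed reads in the WT AGO2-IP libraries. In the miR-379KO AGO2-IP libraries they made up 73.4% and 76.4%. Such reads can lie in introns or on the strand not counted, as well as between genes. The share moved with genotype, and its part in the results below was not tested. The row of the targeted microRNA precursor, Mir379, held 0 to 4 counts in every library and could not check the genotype labels. Of the mesangial and pericyte markers 6 of 8 averaged 50 counts or more in total RNA, with Acta2 the highest, although Itga8 and Thy1 were at or near 0. Endothelial markers summed to at most 2.09 CPM and leukocyte markers to 4.46 to 12.5 CPM, the podocyte markers summed to 240.0 to 628 CPM, mainly through Synpo and Wt1, while Nphs1 was near 0, and tubule markers summed to 5.91 to 51.4 CPM.

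All 7 host transcripts were expressed in MMC. Levels between genes are given as CPM (counts scaled to a fixed library size with the TMM factors of edgeR) per kilobase of annotated exon, scaled within the total RNA libraries, over all 4 of them. Gas5 stood highest at 109.0 ± 12.9 CPM per kb (SD, n = 4 libraries), and its lowest library, at 90.7, was above the highest library of every other member. Snhg6 followed at 57.9 ± 10.5 and Snhg1 at 48.6 ± 10.4, and these overlapped each other but no member below them. Snhg12 at 22.6 ± 5.27, Snhg3 at 16.6 ± 1.66, Snhg5 at 12.4 ± 3.19 and Snhg8 at 10.8 ± 2.28 formed a lower range in which each overlapped the next. Gas5 therefore made up 40.7% to 44.3% of the counts of the 7 transcripts in total RNA. In the AGO2-IP libraries Gas5 was again highest at 32.6 ± 7.0 CPM per kb on the AGO2-IP scale, followed by Snhg1 at 11.3 ± 1.01 and Snhg6 at 7.81 ± 2.02, and it made up 50% to 55.3% of the counts of the 7. The 2 scales are set separately, so levels are to be read within an assay. The methods state reverse-strand counting, and whether that setting fits the AGO2-IP libraries, which were prepared another way than total RNA, was not checked from reads, so the strand behind every AGO2-IP count here is as the authors set it.

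**Figure D1:**
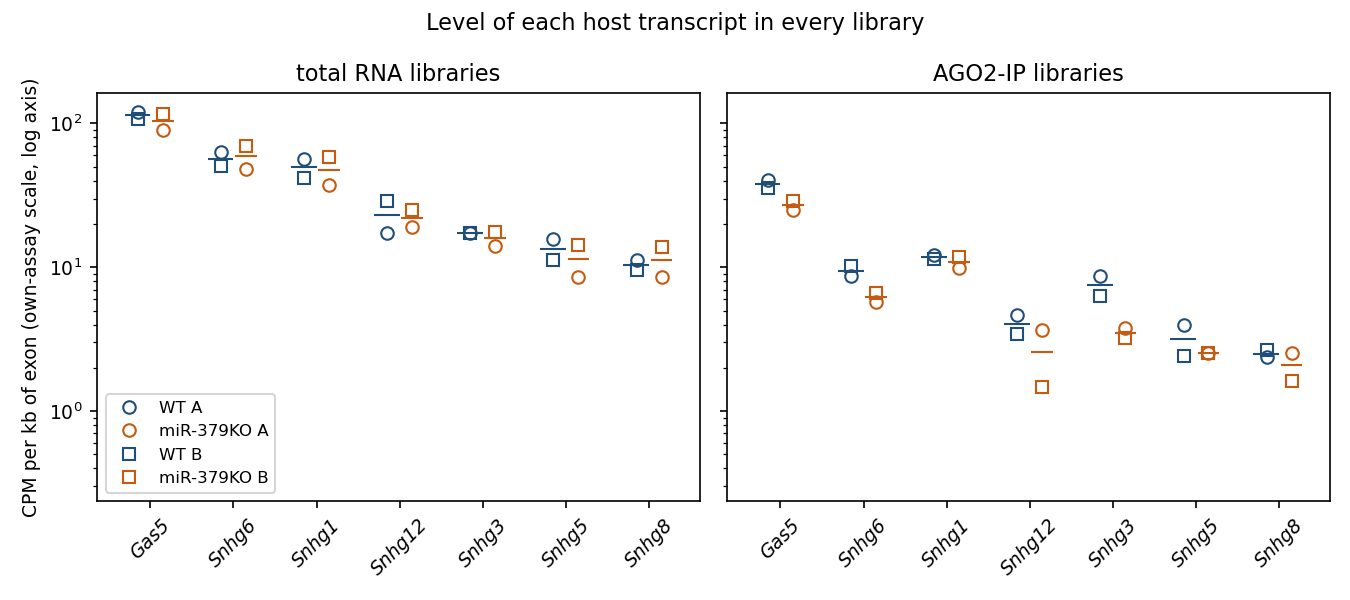
Level of each host transcript in every library, in CPM per kb of annotated exon on a log axis, with total RNA on the left and AGO2-IP on the right. Circles are replicate A, squares replicate B, blue WT, orange miR-379KO and the short lines the group means; in AGO2-IP the miR-379KO points of Gas5, Snhg6 and Snhg3 lie below both WT points, and in total RNA no member separates.

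Deletion of miR-379 left the host transcripts without a detectable change in total RNA. Gas5, the host of 8 annotated snoRNAs, counted 1247 and 1225 in the WT libraries and 1294 and 1220 in the knockout ones, which is 74.4 and 67.0 CPM against 56.3 and 71.7 CPM on the total RNA scale. The genotypes overlapped, and the log2 fold change was -0.15 ± 0.22 (SE), with a 95% confidence interval from -0.69 to 0.40. Snhg1, which carries Snord22 and 7 further snoRNAs, was at 27.1 and 19.9 CPM in WT, and at 17.9 and 27.6 in miR-379KO. Snhg6, host of Snord87, was at 25.7 and 20.5 CPM in WT, and at 19.6 and 28.5 in miR-379KO. In both, the miR-379KO libraries spanned the WT libraries from below to above. Snhg12, host of 3 H/ACA snoRNAs and 1 C/D snoRNA, counted 177 and 320 in WT libraries, or 10.6 and 17.5 CPM, and 11.7 and 15.1 CPM in miR-379KO. Snhg5 and Snhg12 varied most over the 4 libraries, with coefficients of variation of 25.6% and 23.3%, and Snhg3 least, with 10.0%. Snhg3, whose snoRNAs are the pair Snora73a and Snora73b, had 7.58 and 7.50 CPM in WT and 6.17 and 7.75 CPM in miR-379KO.

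None of the 7 passed an adjusted p of 0.05 in total RNA (edgeR quasi-likelihood test, Benjamini-Hochberg over 12321 genes), and none had an unadjusted p under 0.05. The same test called 0 of the 12321 genes, 0.0%, with 91 at an unadjusted p under 0.05, and DESeq2 also called 0. At a 1.5-fold change and an unadjusted p under 0.05, 0 of 7 members and 0.682% of genes passed. No member's WT and miR-379KO libraries were free of overlap, against 19.0% of genes. The log2 fold changes of the members ran from -0.24 (Snhg5) to 0.10 (Snhg8) with a median of -0.07, beside -0.01 over all genes tested. Their signs changed when single libraries were left out and carry no direction. The intervals limit what could have been missed. For 6 of the 7 the interval lay within a 2-fold change either way, and for Snhg5 it reached -1.07 to 0.58.

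In the AGO2-IP, all 7 host transcripts had lower fitted values in miR-379KO than in WT MMC, and 1 of them, Snhg3, fell past the test. Counts of the smaller hosts were low here, from 7 to 59 per library for all but Gas5, which limits what can be told of them. Snhg3 counted 39 and 24 among WT AGO2-IP reads and 14 and 11 among miR-379KO ones, or 3.82 and 2.78 CPM against 1.64 and 1.41 CPM on the AGO2-IP scale. Both miR-379KO libraries were below both WT libraries, and the log2 fold change was -1.11 ± 0.38 with an interval from -1.89 to -0.33 (edgeR quasi-likelihood test, adjusted p = 0.028 over 13505 genes). The call was lost with DESeq2, which gave -1.15 with an adjusted p of 0.227. It was also lost when all 8 libraries were fitted together (-1.26, adjusted p = 0.0624) and when any of 3 libraries was left out: WT AGO2-IP A gave -0.92, miR-379KO AGO2-IP A -1.30 and miR-379KO AGO2-IP B -1.03. Over the alternatives the adjusted p ran from 0.00303 to 0.227 and the sign did not change.

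For Gas5 the WT AGO2-IP libraries held 257 and 192 counts and the miR-379KO ones 132 and 140, or 25.2 and 22.2 CPM against 15.5 and 17.9 CPM. The groups did not overlap, but the log2 fold change of -0.51 ± 0.22 had an adjusted p of 0.0835 in the edgeR test and did not pass. Snhg6 had 36 counts in each WT library against 20 and 21 in miR-379KO, or 3.53 and 4.16 CPM against 2.35 and 2.68 CPM, also without overlap. Its log2 fold change was -0.61 ± 0.33 with an adjusted p of 0.164 in the edgeR test. The other 4 overlapped between genotypes: Snhg12 at -0.64, Snhg5 at -0.34, Snhg8 at -0.25 and Snhg1, the closest to 0, at -0.13, with an interval for Snhg1 from -0.69 to 0.44.

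The background bears on these counts. Across the AGO2-IP libraries 4173 of 13505 genes passed the test, 30.9%, 21.4% in the higher and 9.52% in the lower direction, and 1 of 7 lower is close to the share of all genes. The WT and miR-379KO libraries did not overlap for 68.4% of genes, and were lower in miR-379KO without overlap for 32.2%, against 3 of 7 members. At a 1.5-fold change and an unadjusted p under 0.05, 1 of 7 members, Snhg3, and 39.4% of genes passed. Of all genes tested, 50.6% had a fitted value below 0, with a median of -0.01, against 7 of 7 members with a median of -0.51. Of the 10975 that were also tested in total RNA, as all 7 members were, 61.6% were below 0 and the median was -0.18. The fitted value of Snhg5 became 0.01 without WT AGO2-IP A and that of Snhg8 0.00 without miR-379KO AGO2-IP B.

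**Figure D2:**
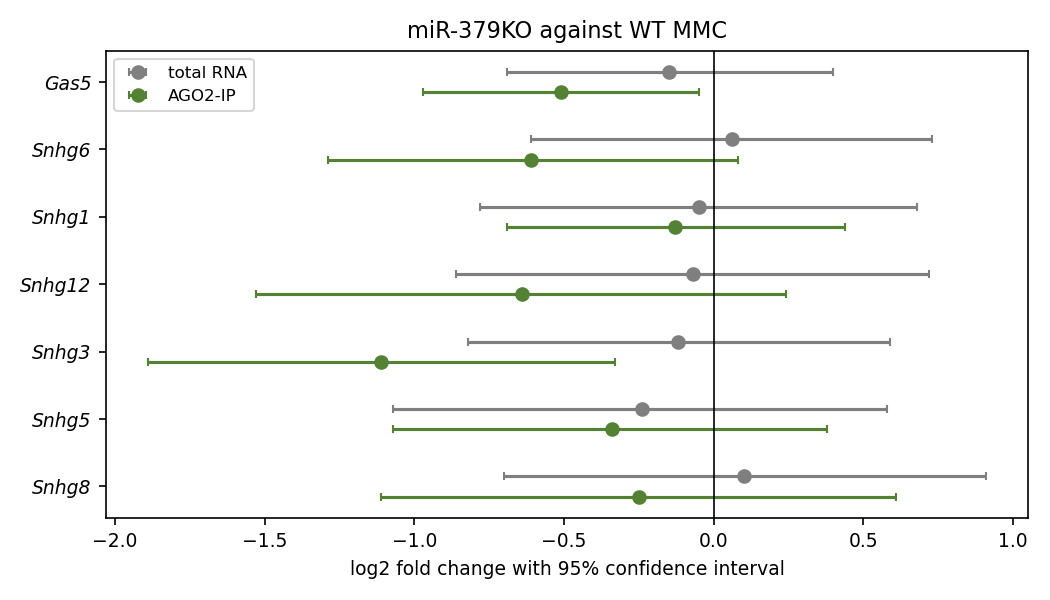
Log2 fold change of each host transcript in miR-379KO against WT MMC, in total RNA (grey) and AGO2-IP (green), with bars for the 95% confidence interval. All 7 green points lie left of 0 and the intervals of Gas5 and Snhg3 end left of it, while every grey interval crosses 0.

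Recovery in the AGO2-IP was then set against total RNA of the same genotype on one scale over all 8 libraries. The 2 kinds of library differ in poly(A) selection, fragment preparation and precipitation at once, and these cannot be told apart. In WT MMC Snhg3 rose above its total RNA level, at 9.10 and 6.73 CPM in the AGO2-IP against 3.01 and 3.43 CPM in total RNA. No AGO2-IP library overlapped a total RNA library, and the log2 fold change was 1.30 ± 0.35, or 2.46-fold, with an interval from 0.57 to 2.03 (edgeR quasi-likelihood test, adjusted p = 0.00492 over 17429 genes). Without WT AGO2-IP A the value was 0.82 and the call was lost, and with a correction for GC content and exon length it was 0.10 with an adjusted p of 0.792. With that correction another host, Snhg6, was called lower in WT in its place, at -1.01 (edgeR adjusted p = 0.00291), 1 of 7 against 26.6% of all genes called lower. That share is over all 17429 genes, including many that entered the test through the AGO2-IP libraries alone and had to be higher there. Over all alternatives the adjusted p of Snhg3 in WT ran from 0.00417 to 0.825.

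Gas5 was at 60 and 53.8 CPM in the WT AGO2-IP against 29.6 and 30.7 CPM in WT total RNA. Its groups did not overlap and its log2 fold change of 0.92 ± 0.23, or 1.89-fold, had an adjusted p of 0.00318 in the edgeR test, short of the 2-fold minimum set for a call. Without either WT AGO2-IP library the adjusted p rose to 0.124 and 0.062. The remaining 5 did not pass: Snhg8 was at 0.45, Snhg1 at 0.44, Snhg5 at 0.43, Snhg12 at -0.04 and Snhg6 at -0.09 on the log2 scale. Of these, Snhg1 and Snhg8 were higher in both AGO2-IP libraries than in both total RNA libraries and the other 3 overlapped. Of all 17429 genes tested, 43.1% were called in WT, 35.7% higher and 7.33% lower, and the median log2 fold change was 0.49, beside the members' median of 0.44 with 1 of 7 called higher. Many of these genes entered the test through the AGO2-IP libraries alone and had to be higher there. Of the 12313 that were also tested in total RNA by itself, as all 7 members were, the median was -0.02, and 12.3% passed in the higher and 10.4% in the lower direction. Without overlap 4 of 7 members and 48.4% of genes were higher, and with no minimum fold 2 of 7 members and 51.6% of genes passed. These last shares are over all 17429 genes, those that entered through the AGO2-IP libraries alone included.

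In miR-379KO MMC none of the 7 was called, against 61.0% of the 17429 genes (41.6% higher and 19.3% lower). DESeq2 called none of the members either, and 1 had an unadjusted p under 0.05. That member was Snhg6, at 5.16 and 5.74 CPM in the AGO2-IP against 8.94 and 12.5 CPM in total RNA. Its log2 fold change of -0.97 ± 0.31 had an adjusted p of 0.00927 in the edgeR test and fell just short of 2-fold. Snhg12 was lower without overlap as well, at 4.90 and 1.91 CPM against 5.33 and 6.60 CPM, but its log2 fold change of -0.80 ± 0.44 did not pass. Gas5 was higher in both AGO2-IP libraries, at 34.0 and 38.3 CPM against 25.7 and 31.3 CPM, and its log2 fold change was 0.34 ± 0.23 (interval from -0.15 to 0.83). Snhg1, Snhg5, Snhg3 and Snhg8 lay between 0.14 and -0.12 with overlapping libraries, and the members' median was 0.09 beside 0.47 over all genes. Of the 12313 genes also tested in total RNA by itself, the median was -0.30, and 17.5% passed in the higher and 27.4% in the lower direction. The direction in miR-379KO rests on the scaling: under the correction for GC content and exon length, the log2 fold changes of all 7 were below 0 and 6 of the 7, all but Gas5, were called lower, in a fit where 41.3% of all genes were called lower and their median was -0.58. With no minimum fold 1 of 7 members and 69.8% of genes passed, while 1 of 7 was higher without overlap against 51.9% of genes and 2 of 7 were lower without overlap against 35.1%. These last shares and the 41.3% under the correction are over all 17429 genes. Genes that entered through the AGO2-IP libraries alone, and had to be higher there, are included. Under the correction no share was taken over the 12313 genes.

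**Figure D3:**
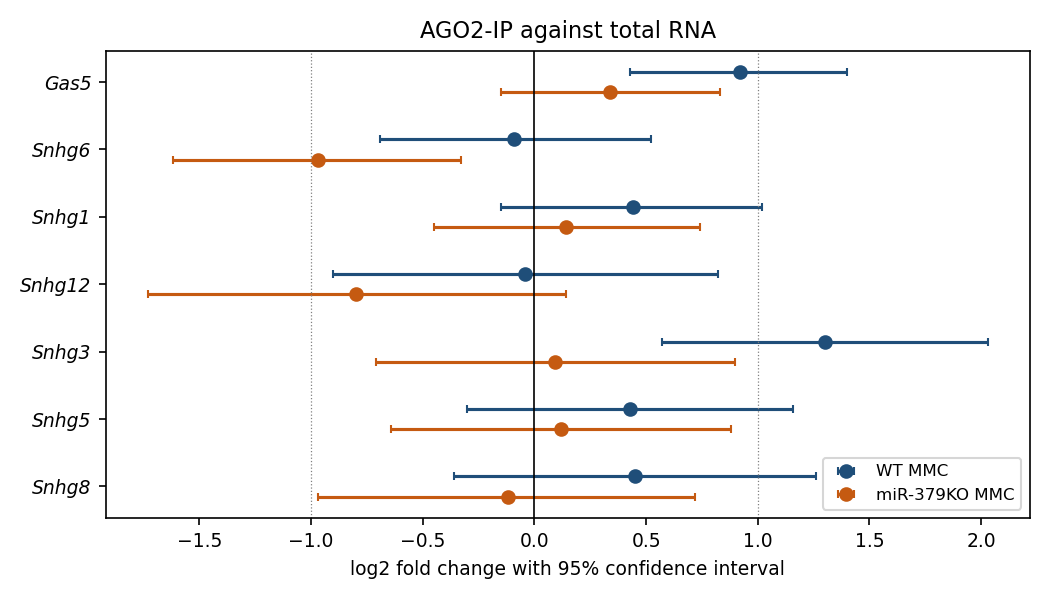
Log2 fold change of each host transcript in AGO2-IP against total RNA, in WT (blue) and miR-379KO (orange) MMC, with bars for the 95% confidence interval and dotted lines at a 2-fold change. Snhg3 in WT, at 1.30, is the only point past 2-fold, and each orange point lies to the left of the blue point of its gene.

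Whether the genotype changed AGO2-IP recovery by more than it changed total RNA was tested with an interaction term in the 8-library fit. All 7 members had values below 0, with a median of -0.58 beside 0.01 over all genes, of which 49.7% were below 0. Of the 12313 genes also tested in total RNA by itself, as the members were, 65.9% were below 0 and the median was -0.31. None passed. Snhg3 had -1.21 ± 0.51 with an unadjusted p of 0.031 and an adjusted p of 0.282, Snhg6 -0.89 ± 0.42 with an adjusted p of 0.321, and Gas5 -0.58 ± 0.33 with an adjusted p of 0.393, all by the edgeR quasi-likelihood test. The test called 0 of 17429 genes, 0.0%, with 2733 at an unadjusted p under 0.05, and DESeq2 called 120 genes but set no adjusted p for any of the 7 members, which its filter on mean counts left out. The interaction is therefore not detectable for the hosts at this depth, and the fall of Snhg3 in the AGO2-IP was not shown to differ from its total RNA change. Under the correction for GC content and exon length Snhg3 (-2.29, adjusted p = 0.0291) and Snhg6 (-1.72, adjusted p = 0.0309) passed in the edgeR test, 2 of 7 lower against 4.49% of all genes, whose median under it was -0.32. That share and median are over all 17429 genes, those that entered through the AGO2-IP libraries alone included.

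The spliced hosts were also searched for the site of the deleted microRNA. Mature miR-379-5p (RefSeq, chr12:109709065-109709085, plus strand) is printed with its seed, bases 2 to 8, in capitals, since pairing of the seed marks candidate targets.
miR-379-5p: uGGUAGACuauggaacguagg
The 7-base match to this seed, GTCTACC on the transcript strand, was in none of the annotated transcripts of the 7 hosts, Snhg3 included. Of 3443 counted genes with exon lengths in the members' range, 407 to 1011 bases, 130 held it, or 3.78%. The absence of a match says only that these letters are not in the annotated exons.

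The snoRNAs in the introns behaved unlike their hosts in these libraries. They are shown here because their annotated length and class differ. Capitals mark, for C/D snoRNAs, the C box letters ATGATGA or GTGATGA within the first 30 bases and the last CTGA within the final 20 bases, and for H/ACA snoRNAs an ACA within the final 10 bases, each on the snoRNA strand. Over annotated snoRNAs of the genome, 46.2% of 93 C/D genes held those C box letters, 98.9% held CTGA, and 94.9% of 39 H/ACA genes held ACA.
Snord22 in Snhg1, chr19:8725866-8725991: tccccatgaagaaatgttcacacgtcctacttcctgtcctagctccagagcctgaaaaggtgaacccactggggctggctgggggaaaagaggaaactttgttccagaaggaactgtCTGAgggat
Snora61 in Snhg12, chr4:132310307-132310368: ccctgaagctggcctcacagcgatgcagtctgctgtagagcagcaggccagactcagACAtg
Snora44 in Snhg12, chr4:132309953-132310069: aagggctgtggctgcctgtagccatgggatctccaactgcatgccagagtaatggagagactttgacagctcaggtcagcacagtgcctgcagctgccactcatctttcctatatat
Snora16a in Snhg12, chr4:132309465-132309600: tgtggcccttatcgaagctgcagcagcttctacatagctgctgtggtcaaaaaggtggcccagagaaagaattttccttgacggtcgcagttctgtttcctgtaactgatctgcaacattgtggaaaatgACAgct
Snord47 in Gas5, chr1:161038092-161038156: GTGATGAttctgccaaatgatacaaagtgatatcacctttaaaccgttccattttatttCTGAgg
Snord87 in Snhg6, minus strand, chr1:9942470-9942543: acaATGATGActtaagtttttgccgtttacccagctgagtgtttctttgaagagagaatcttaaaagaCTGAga
All coordinates are GRCm38.p6, and the strand is plus unless stated. Snord22 is 126 bases, long for a C/D snoRNA, Snord47 and Snord87 are 65 and 74 bases, and Snora61 is annotated at 62 bases, shorter than Snora44 (117) and Snora16a (136).

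Snord22, a C/D snoRNA known for a role in ribosomal RNA processing, had 19 counts in each WT and 13 in each miR-379KO total RNA library. Its AGO2-IP counts were 23366 and 9514 for WT and 15579 and 18479 for miR-379KO, the highest mean of the 115 snoRNA rows. Its host Snhg1 had 40 to 59 counts in the same AGO2-IP libraries, so Snord22 outnumbered the exons of Snhg1 by 202 to 420 counts for each host count, against 2.77 to 5.22 Snord22 counts for each 100 host counts in total RNA. The log2 fold change of Snord22 in AGO2-IP against total RNA was 13.08 ± 0.61 in WT and 13.89 ± 0.63 in miR-379KO, while that of Snhg1 was 0.44 and 0.14. The total RNA libraries were made from polyadenylated RNA and held few Snord22 counts. Poly(A) selection and precipitation therefore cannot be told apart in this contrast. With genotype, Snord22 did not pass in either assay (0.30 ± 0.38 in the AGO2-IP, edgeR adjusted p = 0.562).

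Snhg12 showed the same contrast within a single host. Its H/ACA snoRNAs guide pseudouridylation, and Snora61 had 4 to 13 counts in total RNA, 925 and 359 in WT AGO2-IP and 636 and 515 in miR-379KO AGO2-IP. Snora44 had 1 to 5 counts in total RNA against 951, 368, 600 and 471 in the AGO2-IP, in the same order of libraries. Snora16a had 3 to 6 against 316, 113, 181 and 87. Snhg12 itself had 29, 18, 19 and 7, so each library held 6.28 to 73.6 counts of each of these snoRNAs for 1 count of the host exons. The fourth, Snord99, a C/D snoRNA of 56 annotated bases, had 0 or 1 counts in the AGO2-IP and 2 to 5 in total RNA. The 3 H/ACA rows entered the test through the AGO2-IP libraries alone, so their calls against total RNA follow from that and are not counted as support. None of the 3 passed between genotypes, with log2 fold changes in the AGO2-IP of 0.09 for Snora61, -0.06 for Snora44 and -0.45 for Snora16a (edgeR adjusted p = 0.856, 0.904 and 0.515).

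The short C/D snoRNAs of the other hosts stayed at the level of single counts in every library. Snord47 in Gas5 had 3 to 6 counts in total RNA and 1 to 6 in the AGO2-IP, beside 132 to 257 AGO2-IP counts of Gas5 exons. Snord87 in Snhg6 had 0 to 2 and 0 to 4. Across the 115 snoRNA rows the pattern went with annotated class and length: none of 60 C/D rows up to 90 bases averaged 50 counts or more in the AGO2-IP, against 5 of 10 longer C/D rows and 22 of 36 H/ACA rows, and none of the 115 did so in total RNA. Whether poly(A) selection of total RNA, fragment length, library chemistry or precipitation was behind this was not tested. Snora24 was at 0 in all 8 libraries. Its 130 bases lie wholly in the single annotated exon of Snhg8, and a read inside both is set aside as ambiguous under the usual setting of the counting program, so neither its 0 nor the counts of Snhg8 can be read as covering that stretch.

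**Figure D4:**
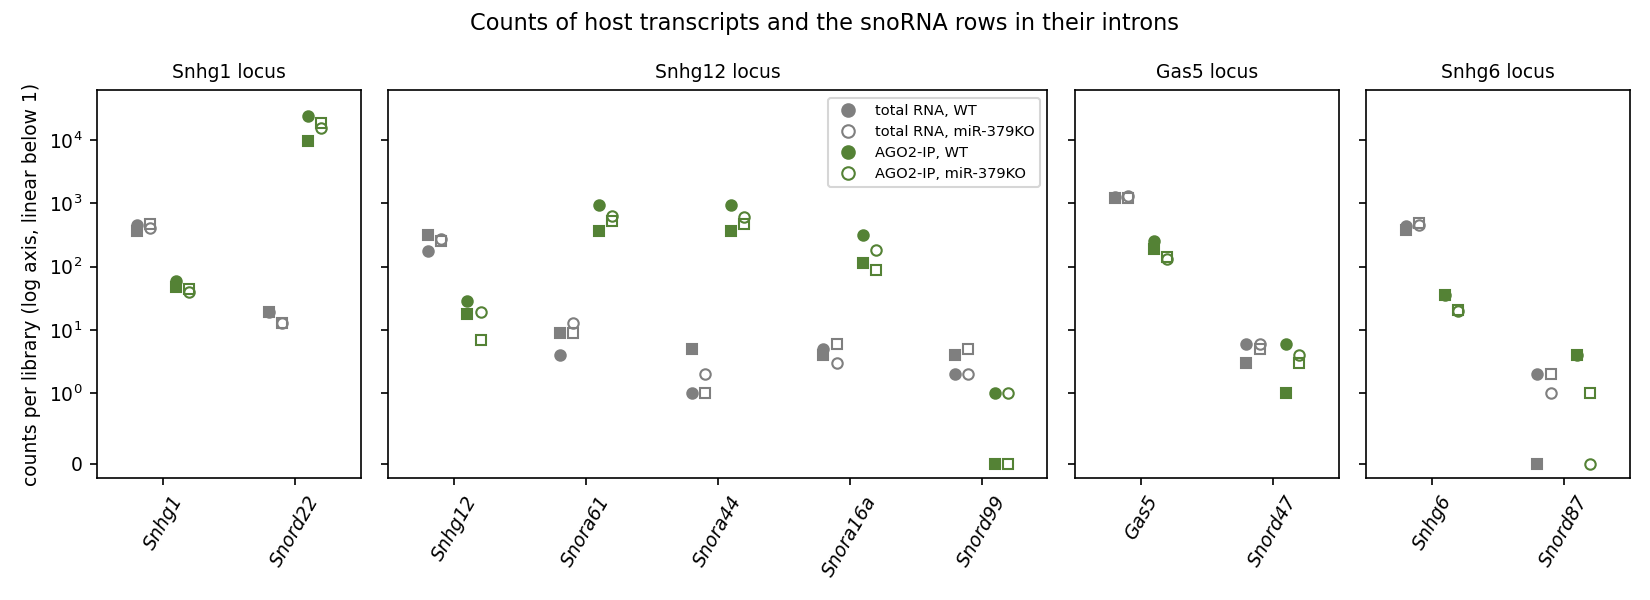
Counts per library of 4 hosts and of the snoRNA rows in their introns, on a log axis that is linear below 1. Grey is total RNA, green AGO2-IP, filled WT, open miR-379KO, circles replicate A and squares replicate B; Snord22, Snora61, Snora44 and Snora16a lie above their hosts in the AGO2-IP and below them in total RNA, and Snord99, Snord47 and Snord87 stay at 6 counts or fewer.

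Other gene groups place the hosts among their relatives. Genes that entered the test against total RNA through the AGO2-IP libraries alone had to be higher there, so the counts of lists are given over the genes that were also tested in total RNA by itself. Of 12 further Snhg-type hosts 9 were, and 3 were called higher and none lower in WT, with a median log2 fold change of 0.77. In miR-379KO 2 rose and 1 fell, at a median of 0.48. Snhg11, with 1 to 5 counts in total RNA, entered through the AGO2-IP alone and is not counted, and the lowest, Snhg18, was at -1.43 in miR-379KO and called lower. Protein-coding genes that hold an annotated snoRNA on their own strand had a median of -0.37 in WT and -0.85 in miR-379KO over 189 genes, where 19 rose and 52 fell in WT, and in miR-379KO 23 rose and 87 fell. A further 26 of them entered through the AGO2-IP alone.

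The ribosomal protein mRNAs, which start with a 5′TOP tract as many snoRNA hosts do, differed from the 7 hosts in recovery. Of 80 rows named as cytosolic ribosomal protein genes, 55 were called lower and none higher in WT and 76 lower in miR-379KO, with medians of -1.24 and -2.23. Rplp2 was lowest in miR-379KO at -3.43. Reads of ribosomal protein genes can be shared with processed pseudogenes, so single values are uncertain. Of 17 other 5′TOP mRNAs, mainly translation factors, 15 were called lower in WT and 16 in miR-379KO, with medians of -1.27 and -2.07, and Tpt1 was lowest in WT at -1.97. The host medians of 0.44 and 0.09 stood above both groups. Of the 7 hosts none was called lower here, although Snhg6 in miR-379KO, at -0.97, was called lower with no minimum fold, and at -1.09 with no filter on low counts. Under the correction for GC content and exon length 6 of the 7 were called lower in miR-379KO, against 41.3% of all genes. Snhg6 was then called lower in WT, against 26.6% of all genes. These shares are over all 17429 genes, those that entered through the AGO2-IP libraries alone and had to be higher there included. No share was taken under the correction for genes also tested in total RNA by itself. The gene groups were not compared under that correction. Between genotypes in the AGO2-IP, all 78 ribosomal protein genes tested and all 17 other 5′TOP mRNAs had values below 0, as the hosts did, with medians of -0.59 and -0.42, and 37 and 2 of them were called lower.

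The proteins that work on these RNAs were compared next. Of 17 snoRNP assembly and core proteins, among them the H/ACA core protein Nhp2, none passed between genotypes in total RNA, where 16 of 17 had values above 0 and the median was 0.16, and 1, the assembly helicase Ruvbl2, was called lower in the AGO2-IP at -1.05. In AGO2-IP against total RNA 6 of the 17 were called lower in WT and 12 in miR-379KO, with Nhp2 lowest in both at -1.36 and -2.75. Of 12 NMD factors none was called between genotypes in total RNA, with a median of -0.05, and 1 was called lower in the AGO2-IP. Against total RNA in WT, Smg1, the kinase of the pathway, was highest at 1.24 and Upf3a lowest at -1.01, both called. Of 6 nuclear long non-coding RNAs also tested in total RNA by itself, 5 were called higher in WT and 4 in miR-379KO, with medians of 3.91 and 3.97 and Neat1, the scaffold of paraspeckles, at 6.93 in WT. These lists were chosen with results known, and their counts are descriptions.

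**Figure D5:**
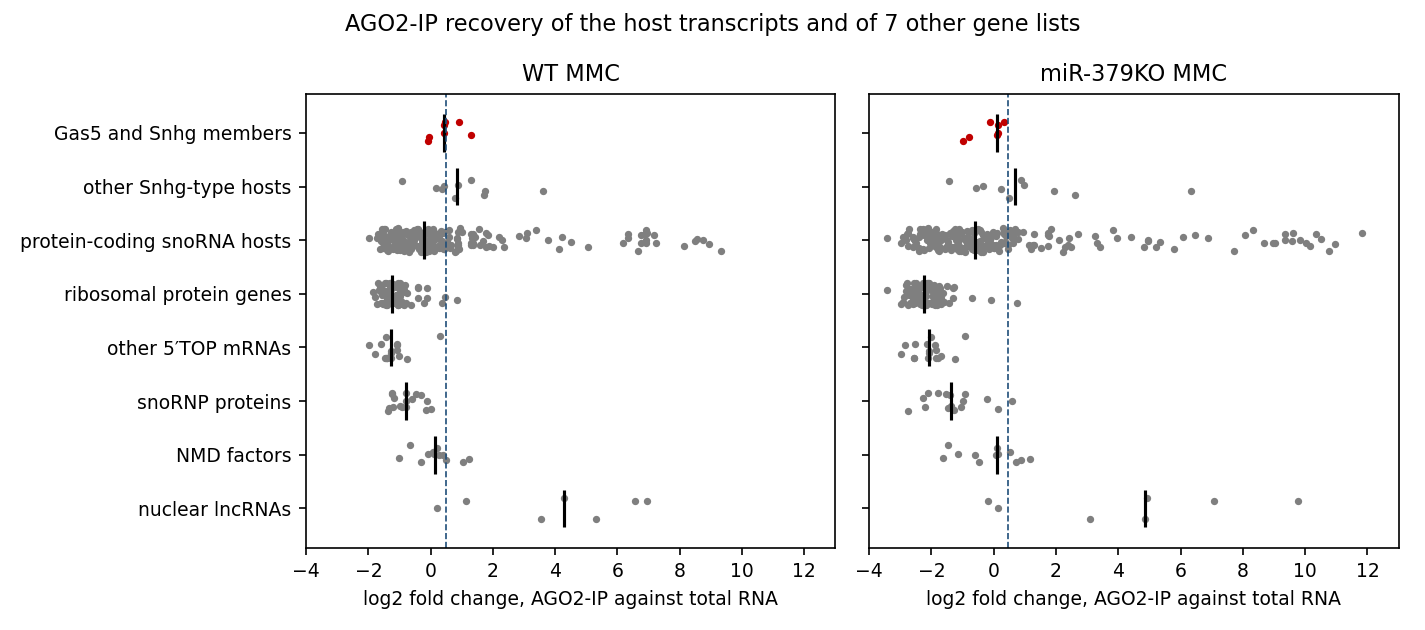
Log2 fold change in AGO2-IP against total RNA for the 7 host transcripts (red) and 7 other gene lists (grey), 1 point per gene tested, those that entered through the AGO2-IP libraries alone included, in WT (left) and miR-379KO (right) MMC. Black bars are list medians and the dashed line is the median of all genes tested, 0.49 and 0.47. The host median lies near the line in WT, above those of the ribosomal protein genes and other 5′TOP mRNAs and below most nuclear long non-coding RNAs. Over genes also tested in total RNA by itself, which the line does not show, the median was -0.02 in WT and -0.30 in miR-379KO.

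Among 4856 genes that averaged at least 50 counts in each assay, the 5 whose profile over the 8 libraries lay nearest to the mean profile of the hosts were Cnot1, Pdcd11, Prrc2a, 1700017B05Rik and Nxf1. Likeness was the Euclidean distance between centred log2 CPM values over the 8 libraries, and it ran from 0.219 for Cnot1, the scaffold of the main deadenylase complex, to 0.314 for Nxf1, the mRNA export receptor. Pdcd11, a ribosomal RNA processing factor, was at 0.235. The hosts themselves lay 0.462 (Snhg8) to 1.21 (Snhg12) from their own mean, farther than these genes. The 5 genes were picked as the nearest among genes with at least 50 counts, and all hosts but Gas5 averaged fewer in the AGO2-IP. The smaller distances of the 5 genes are therefore not to be read as likeness to single hosts.

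Exons of Snhg6 are shared with a gene on the other strand. Snhg6 overlaps 308 exon bases of Mcmdc2, whose AGO2-IP counts were 46 and 28 for WT and 99 and 119 for miR-379KO. In total RNA they were 32 and 31 for WT and 25 and 28 for miR-379KO. Whether reads of one were counted to the other was not tested.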

How the data were processed

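Per the deposited files, each of the 8 samples held raw read counts per RefSeq gene, which the authors made by aligning to mm10 with TopHat and counting with HTSeq 0.6.0 on the reverse strand. Total counts per library and their split are given above, and counting error sets the precision for rows under about 50 counts. Groups came from the sample labels. Counts were fitted with edgeR 4.0.16 (TMM factors, filterByExpr with a minimum count of 10, quasi-likelihood F test, Benjamini-Hochberg). The 4 libraries of an assay were fitted for genotype, and all 8 for AGO2-IP against total RNA, which also required a 2-fold change, and for the interaction. All 7 members passed this filter in each comparison. CPM use the same factors. Alternatives were DESeq2 1.42.0, other factors, filters, a replicate block, a GC content and exon length offset (lowess), and leaving out each library. Of the rows, 24323 (98.7%) matched RefSeq GRCm38.p6. The statistics were tested on simulated data. Named genes were all members, the snoRNA rows inside them, the highest or lowest member of each list, and the 5 nearest profiles. The members and lists were chosen with earlier results of these data known.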

Additional observations from a re-analysis of the deposited data

How the results depend on the processing

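In total RNA no member was called under any alternative. The fall of Snhg3 in the AGO2-IP was called in 8 of 13 alternatives and kept its sign in all. Members called there numbered 0 with DESeq2, with all 8 libraries in one fit and with the 50-count mean filter, which left only Gas5 tested, and 2 with no filter, where Gas5 joined. In WT recovery Gas5 and Snhg3, 2 members, were called with no minimum fold and with the 50-count mean filter. In miR-379KO recovery 1, Snhg6, was called with TMM factors without the 20 most abundant genes, with no filter and with no minimum fold. The cause of these moves was not tested. Leaving out 1 library gave 0 to 1 members called in each of these 3 comparisons, and single members called then were Snhg3, Snhg6 and Snhg12.

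The correction (offset) for GC content and exon length moved the median of all genes to -0.27 in WT recovery, -0.58 in miR-379KO recovery and -0.32 for the interaction, from 0.49, 0.47 and 0.01. RLE factors moved the interaction median to 0.28 and the miR-379KO recovery median to 0.66. With the offset 6 members were called in miR-379KO recovery and 2 for the interaction. It turned the sign of Snhg6 (-0.12) and Snhg8 (-0.06) in total RNA, of Snhg1 (-0.40), Snhg5 (-0.15) and Snhg8 (-0.08) in WT recovery, and of Gas5 (-0.06), Snhg1 (-1.52), Snhg3 (-2.19) and Snhg5 (-1.03) in miR-379KO recovery. The split of all genes called in WT recovery became 5008 higher and 4644 lower with the offset, from 6230 and 1277, and in miR-379KO recovery 5955 and 7198, from 7256 and 3371.

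Other signs turned near 0. Snhg8 in miR-379KO recovery was 0.05 with DESeq2 and RLE factors and 0.39 with the 50-count mean filter, which also gave Snhg6 0.02 and Snhg12 0.10 in WT recovery and Snhg1 0.12 and Snhg5 0.10 for the interaction. Snhg3 in miR-379KO recovery was -0.02 with no filter, and Snhg1 in total RNA 0.02 with all 8 libraries in one fit. Leaving out single libraries gave, in total RNA, Gas5 -0.32 to 0.04, Snhg1 -0.39 to 0.26, Snhg3 -0.28 to 0.06, Snhg5 -0.64 to 0.10, Snhg6 -0.23 to 0.33, Snhg8 -0.27 to 0.43 and Snhg12 -0.39 to 0.34. In the AGO2-IP it gave Snhg5 -0.69 to 0.01 and Snhg8 -0.69 to 0.00. In WT recovery it gave Snhg5 -0.22 to 0.54 and Snhg12 -0.50 to 0.48, in miR-379KO recovery Snhg1 -0.17 to 0.38, Snhg3 -0.09 to 0.21, Snhg5 -0.23 to 0.42 and Snhg8 -0.50 to 0.16, and for the interaction Snhg1 -0.57 to 0.08 and Snhg5 -0.63 to 0.30.

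Counts of all genes called moved as well. Between genotypes in the AGO2-IP, 838 genes were called with DESeq2, 274 with the 50-count mean filter, 686 with all 8 libraries in one fit and 918 without miR-379KO AGO2-IP B, against 4173. For the interaction 120 were called with DESeq2, 806 with the offset and 0 to 1547 when a library was left out. With the study's threshold, 84 genes were called in total RNA. In WT recovery 1829, and in miR-379KO recovery 3380, were called with the 50-count mean filter, and 16163 in the latter with no filter.

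Deviations of samples with the same letter had correlations of -0.105 in total RNA and 0.0316 in the AGO2-IP between genotypes, and of 0.199 in WT and 0.177 in miR-379KO between assays. With 2 letters and no label that ties them to a shared culture or day, they were not taken as pairs. With the replicate block the members called were 0 in total RNA, 1 in the AGO2-IP, 1 in WT recovery, 0 in miR-379KO recovery and 0 for the interaction, where 8 genes of all were called. The replicate block together with the offset gave 6 members in miR-379KO recovery, 3 for the interaction and 1750 of all genes for the interaction, with Snhg6 at -0.10 and Snhg8 at -0.06 in total RNA, Snhg1 -0.39, Snhg5 -0.15 and Snhg8 -0.08 in WT recovery and Gas5 -0.06, Snhg1 -1.53, Snhg3 -2.20 and Snhg5 -1.05 in miR-379KO recovery. A crossed pairing of the total RNA samples, chosen after seeing the data, called 1 of 12321 genes and no member.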
